A study of Rattus norvegicus with 12 samples.

Results

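The 7 genes Nab1, Coq10b, Maip1, Nif3l1, Trak2, Sardh and Fubp3 were chosen by their array signal: in an earlier pass over these data, at least 1 probe set of each stood apart in the Ept6 rats from the other congenic lines. A probe set is the group of short array oligonucleotides that together report 1 transcript. Every probe set whose annotated gene symbol was exactly 1 of the 7 was taken, which gave 12 of the 31099 probe sets on the array. Sardh and Fubp3 (4 probe sets) lie on rat chromosome 3 and the other 5 genes (8 probe sets) on chromosome 9, as placed in the RefSeq annotation of the GRCr8 assembly. The series held 12 arrays of anterior pituitary RNA from male rats, 3 for each of the congenic lines Ept6, Ept2, Ept1 and Ept9. Each line carried COP alleles on an ACI background, on chromosome 3 in Ept6 and in Ept2, on chromosome 6 in Ept1 and on chromosome 10 in Ept9. The labels placed no COP segment on chromosome 9 in any line and gave no ends for the segments. All males carried a silastic implant with 5 mg of the synthetic estrogen diethylstilbestrol (DES) from 9 to 21 weeks of age, and received 50 mg/kg of BrdU 4 h before the end. No untreated rats and no arrays of the parental strains were analysed here, so every difference below is between DES-treated lines.

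Estrogens drive the growth of prolactin cells in the pituitary of susceptible rats such as ACI, and the Ept loci were mapped as regions that modify this growth. The genes described here have no single pathway in common. Nab1 is a corepressor that binds transcription factors of the EGR family. Coq10b binds coenzyme Q in the inner mitochondrial membrane, Maip1 binds the matrix AAA protease of mitochondria, Trak2 is an adaptor that links mitochondria to kinesin motors, and Sardh is the mitochondrial enzyme that turns sarcosine into glycine. Fubp3 is a nucleic-acid binding protein of the far-upstream-element family, and Nif3l1 is a conserved protein that in the mouse binds the COP9 subunit Cops2.

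Promoter sequences are shown for 3 of the genes, from the RefSeq windows of 250 bases before to 50 bases after an annotated start. They come from the reference strain and not from the ACI or COP rats. Nab1 is shown because its window held the EGR site GCGTGGGCG on each strand (capitals), the motif bound by the factors with which the Nab1 protein works. Nif3l1 and Sardh are shown because both probe sets of each were higher in Ept6 and because their windows held the estrogen response element half-site GGTCA on 1 strand (capitals).

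Nab1, GRCr8 chr9:56545392-56545691, + strand: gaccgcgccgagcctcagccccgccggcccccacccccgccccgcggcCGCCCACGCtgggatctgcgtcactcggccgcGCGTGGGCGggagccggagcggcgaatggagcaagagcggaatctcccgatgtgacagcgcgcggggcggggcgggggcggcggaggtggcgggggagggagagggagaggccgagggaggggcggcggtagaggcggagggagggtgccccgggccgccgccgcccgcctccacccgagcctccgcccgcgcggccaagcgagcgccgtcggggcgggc
Nif3l1, GRCr8 chr9:67474122-67474421, + strand: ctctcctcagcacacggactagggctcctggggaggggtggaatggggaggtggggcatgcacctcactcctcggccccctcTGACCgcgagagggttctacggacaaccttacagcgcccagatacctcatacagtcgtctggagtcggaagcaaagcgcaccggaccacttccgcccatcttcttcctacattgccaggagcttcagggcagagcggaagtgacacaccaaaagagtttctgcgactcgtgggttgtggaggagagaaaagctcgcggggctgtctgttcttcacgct
Sardh, GRCr8 chr3:30972088-30972387, - strand: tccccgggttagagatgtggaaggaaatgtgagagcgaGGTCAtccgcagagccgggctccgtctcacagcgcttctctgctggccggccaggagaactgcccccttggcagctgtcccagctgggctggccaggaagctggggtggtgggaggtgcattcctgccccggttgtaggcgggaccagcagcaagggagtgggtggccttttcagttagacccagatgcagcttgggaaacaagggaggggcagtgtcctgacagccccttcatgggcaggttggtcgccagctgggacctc

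The matches in Nab1 lay 202 bases (reverse strand) and 170 bases (forward strand) before its start. Of all 33469 promoter windows of the table, 0.544% held this EGR motif on either strand, and Nab1 was the only 1 of the 7 genes with it. The half-site GGTCA was common, being present in 40.5% of all windows and in 2 of the 8 windows of the 7 genes. It lay 168 bases before the start used for the Nif3l1 window (reverse strand). In Sardh it lay 212 bases before the start used for the window shown (forward strand). Sardh had a second window, which held neither motif. The cyclic AMP response element TGACGTCA, present in 1.83% of all windows, was found in none of the 8 windows of the 7 genes. The first 204 bases of the Nif3l1 window also lie within the annotated gene Ppil3, which runs on the opposite strand. The annotated span of the Nif3l1 gene begins before the start used for its window.

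The deposited values are linear signals scaled by the authors to a trimmed mean of 500 on every array (500.18 to 500.19, with 2% trimmed at each end), and differences are given on the log2(signal + 16) scale from a limma fit of all 12 arrays. Probe sets with a mean signal under 69.7 were left out as dim, and 18607 were tested, among them all 12 probe sets of the 7 genes. Pairs of arrays correlated between 0.966 and 0.983 over the tested probe sets. The labels conflict on replication, naming 3 biological replicates in the design but 3 males giving 2 independent replicates in the sample notes, so p-values may in part measure technical spread. The labelled tissue carried its markers: the summed signal of 8 anterior pituitary genes was 111760 to 117956 in Ept6 and 117827 to 150539 in the other lines, although the Pomc probe set was dim. All 4 posterior lobe and hypothalamus markers (Avp, Oxt, Gfap and Rax) were dim, with sums of 143 to 246 in Ept6 and 87.2 to 341 in the other lines. The 4 blood and leukocyte markers measured summed to 13777 to 15188 in Ept6, below the 16245 to 29891 of the other lines, and most of this sum was hemoglobin Hbb. The difference between the 3' and 5' Gapdh probe sets, which rises as RNA breaks down, was 0.14 ± 0.06 on the log2 scale in Ept6, against 0.38 ± 0.06 in Ept2, 0.25 ± 0.01 in Ept1 and 0.21 ± 0.06 in Ept9 (SD, n = 3 each). The part of blood content and RNA quality in the differences below was not tested, and in whole-tissue RNA fewer cells of a type and less RNA per cell cannot be told apart.

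Both probe sets of Nif3l1 were higher in Ept6, by very different amounts. Its probe set 1384207_at read 737, 713 and 695 in Ept6, against 45.8, 36.2 and 62.9 in Ept2, 56.8, 64.1 and 76.7 in Ept1, and 86.4, 74.3 and 26.6 in Ept9. The lowest Ept6 array was thus 8.05 times the highest of the 9 others, and the mean of Ept6 was 12.1 times their mean (a difference of 3.34 ± 0.23 on the log2 scale, SE). In those 9 arrays the mean was 58.9, under the line for dim probe sets, so this probe set was tested only through its level in Ept6, and the size of the ratio depends on an unknown array background. The other Nif3l1 probe set, 1383289_at, was well above that line in every array. It read 784.5, 862 and 873 in Ept6, against 425, 386.5 and 362 in Ept2, 397, 459 and 350.4 in Ept1, and 418, 379 and 377 in Ept9. Both probe sets were higher in every Ept6 array than in any other array, but the 1383289_at ratio was smaller, at 2.13 times the mean of the other lines (1.06 ± 0.09 on the log2 scale, SE).

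Trak2, which lies beyond Nif3l1 with 4 tested genes between them, had probe sets that moved in opposite directions. Its probe set 1370176_at read 1506, 1394 and 1257 in Ept6, against 928, 702 and 743 in Ept2, 705, 649.7 and 817 in Ept1, and 773, 711.5 and 643 in Ept9. No array of another line reached the lowest Ept6 array, and the ratio of means was 1.87 (0.89 ± 0.11 on the log2 scale, SE). Probe set 1372092_at read 840.2, 862 and 971 in Ept6, against 1052, 1344 and 1061 in Ept2, 1076, 1157 and 1139.8 in Ept1, and 963.5, 1007 and 1121 in Ept9. The highest Ept6 array lay just above the lowest Ept9 array, so that the lines overlapped, and the Ept6 mean was 0.808 of the mean of the others (-0.30 ± 0.09 on the log2 scale, SE). In the annotation Trak2 shares 1510 bases with Stradb, the gene of an LKB1-binding pseudokinase on the opposite strand, and the Stradb probe set differed by -0.32 between Ept6 and the other lines (limma adjusted p = 0.395).

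Maip1, Coq10b and Nab1 were lower in Ept6. The single Maip1 probe set, 1379343_at, read 178, 186 and 185 in Ept6, against 546, 296 and 346 in Ept2, 346, 346 and 373 in Ept1, and 506.5, 538 and 357 in Ept9. The 3 Ept6 arrays differed little from each other (183 ± 4.27, SD), while Ept2 was the most variable line (396 ± 132, SD). The mean of Ept6 was 0.450 of that of the other lines (-1.05 ± 0.17 on the log2 scale, SE).

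The single Coq10b probe set, 1373866_at, was bright in every line. It read 2009, 2302.5 and 2229.6 in Ept6, against 3420.5, 3473.5 and 3119 in Ept2, 3059.6, 2927 and 3257 in Ept1, and 2881, 3277 and 2647 in Ept9. The Ept6 arrays lay below all others without overlap, at 0.699 of their mean (-0.51 ± 0.08 on the log2 scale, SE).

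Nab1 probe set 1393172_at read 1107, 999 and 1138 in Ept6, against 1631, 1561 and 1656 in Ept2, 1596, 1259.7 and 1629.9 in Ept1, and 1715, 1631 and 1624 in Ept9. The second array of Ept1 came nearest to Ept6, and the ratio of the means was 0.680 (-0.55 ± 0.09 on the log2 scale, SE). Probe set 1369409_at read 669.9, 501 and 614 in Ept6, against 874, 934 and 573 in Ept2, 929, 678.5 and 744 in Ept1, and 702, 838 and 791 in Ept9. Its mean was also lower in Ept6 (-0.39 ± 0.15 on the log2 scale, SE), but 1 Ept2 array fell among those of Ept6.

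On chromosome 3, both Sardh probe sets were higher in Ept6, with ratios close to each other. Probe set 1372323_at read 1262, 1311 and 1105 in Ept6, against 474, 492 and 509 in Ept2, 310.2, 354 and 334 in Ept1, and 539, 492.5 and 424 in Ept9. Ept6 was at least 2.05 times any other array, and 2.81 times the mean of the others (1.48 ± 0.09 on the log2 scale, SE). The dimmer probe set 1370573_at read 228.5, 289.8 and 413 in Ept6, against 142, 134 and 122 in Ept2, 78.3, 110.2 and 16 in Ept1, and 128, 145 and 169 in Ept9. It gave a ratio of 2.68 (1.40 ± 0.33 on the log2 scale, SE). The spread within lines was widest in Ept1 on the log2 scale, but in signal it was widest in Ept6 (SD 93.9, against 47.9 in Ept1).

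Fubp3 showed the most marked disagreement between probe sets. Probe set 1393006_at read 180.8, 199 and 164 in Ept6, against 820.3, 1032 and 953 in Ept2, 1084, 1116 and 1218 in Ept1, and 1147, 1046 and 946 in Ept9. The mean of the 9 other arrays was 5.74 times that of Ept6 (-2.42 ± 0.09 on the log2 scale, SE). Probe set 1382390_at read 1816, 2152 and 1735 in the same 3 Ept6 arrays, against 919.8, 1333 and 1084 in Ept2, 1112, 1035 and 825.5 in Ept1, and 1014, 1091 and 1195 in Ept9. It was thus 1.78 times higher in Ept6 (0.83 ± 0.13 on the log2 scale, SE), and the 2 probe sets of this gene differed by 3.25 in their log2 difference.

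**Figure D1:**
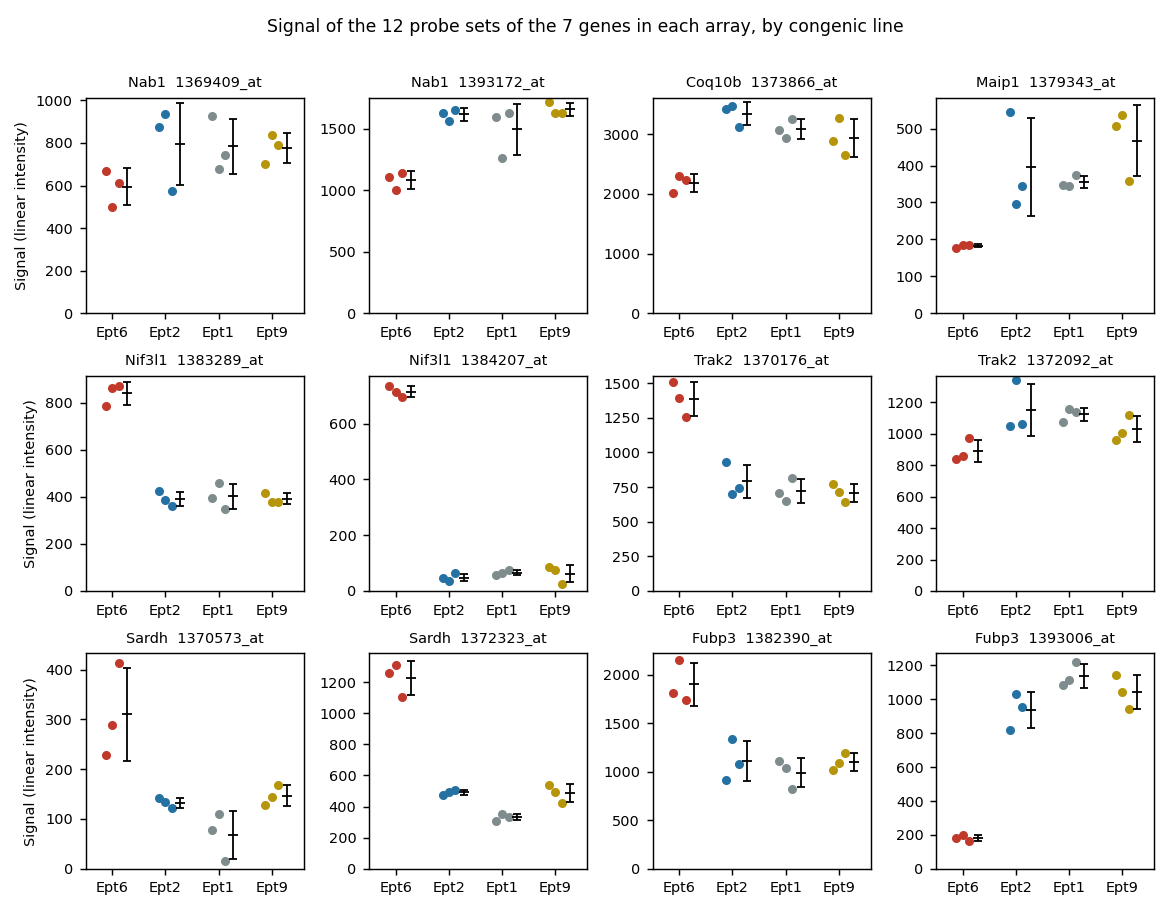
Linear signal of the 12 probe sets of the 7 genes, 1 panel each, in the 3 arrays of Ept6, Ept2, Ept1 and Ept9 (points), with the mean and SD of each line (black bar). The Ept6 arrays stand apart from all others in 10 panels, above them in 6 and below them in 4, and overlap them in Nab1 1369409_at and Trak2 1372092_at.

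Of the 5 genes with more than 1 probe set, Nab1, Nif3l1 and Sardh had the same sign in both and Trak2 and Fubp3 had opposite signs. The difference between the 2 log2 values of a gene was 0.08 for Sardh, 0.16 for Nab1, 1.19 for Trak2, 2.28 for Nif3l1 and 3.25 for Fubp3. Where along the transcripts each probe set lies was not available from the tables used here, so exons, alternative ends and the sequence under the probes were not analysed. In 10 of the 12 probe sets all 3 Ept6 arrays lay outside the range of the 9 others, against 1.93% of all tested probe sets (161 above and 199 below). In the limma fit 9 of the 12 passed an adjusted p of 0.05 for Ept6 against the other lines, against 0.161% of all tested (30, 23 higher and 7 lower). These counts follow from the way the genes were chosen and carry no weight as a test. The 3 that did not pass were Nab1 1369409_at, Trak2 1372092_at and Sardh 1370573_at. Not all of the 9 kept their call: 5 were left with a pseudocount of 1 or with the replicate block, 4 without the filter on dim probe sets, and 4 to 7 when single arrays were left out (4 without Ept6 replicate 1 or 2, and 5 without Ept6 replicate 3, Ept2 replicate 3, Ept1 replicate 1 or 3, or Ept9 replicate 1 or 2), while Nif3l1 1383289_at, Sardh 1372323_at and Fubp3 1393006_at passed in all 21 alternatives. Nab1 1393172_at, Coq10b, Maip1 and Fubp3 1382390_at were the calls lost with a pseudocount of 1 and with the replicate block, and Trak2 1370176_at was lost besides these without the filter. The Coq10b call was lost whichever single array was left out, and that of Nab1 1393172_at for every array except Ept1 replicate 2. Of the single arrays, only Ept2 replicates 1 and 2 could be left out without loss of the Fubp3 1382390_at call. For Maip1 this held for the same 2 arrays and Ept9 replicate 3.

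Ept2, the other line with a COP segment on chromosome 3, was set against the mean of Ept1 and Ept9. This comparison uses none of the Ept6 differences and asks whether Ept2 had a difference of its own. No probe set of the 7 genes was called (0 of 12, limma adjusted p between 0.247 and 0.998), against 0.344% of all tested probe sets (64, 33 higher and 31 lower). At an unadjusted p of 0.05, the probe sets Sardh 1372323_at and Fubp3 1393006_at passed (2 of 12), against 2186 of all 18607. The 3 Ept2 arrays overlapped the 6 arrays of Ept1 and Ept9 in all 12 probe sets. How far Ept2 lay from Ept6 was in part fixed by the choice of the genes, since Ept2 was among the lines from which Ept6 stood apart. For the same reason a gene with Ept2 at the Ept6 level was unlikely to be chosen. The lack of calls therefore cannot show whether Ept2 shares the Ept6 level, and at a background of 0.344% a count of 0 of 12 is no result. The Ept6 values below are given as a description beside those of Ept2. An exact two-sided permutation test over the 84 ways to choose 3 of the 9 arrays gave p between 0.0595 and 1.0 for the 12 probe sets, where 0.0119 is the smallest possible.

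For Sardh, probe set 1372323_at was 0.28 higher on the log2 scale in Ept2 than in Ept1 and Ept9 (95% interval 0.08 to 0.49, limma adjusted p = 0.247, exact permutation p = 0.202). Set against the same arrays, Ept6 was 1.57 higher. Probe set 1370573_at was 0.46 higher in Ept2 (95% interval -0.33 to 1.24, limma adjusted p = 0.675), and 1.55 higher in Ept6. In both probe sets Ept1 was the lowest line, and Ept2 lay near Ept9. The mean signals of Ept2, Ept9 and Ept1 were 492, 485 and 333 for 1372323_at, and 133, 147 and 68.2 for 1370573_at. In Fubp3 the probe set 1393006_at that was low in Ept6 was -0.22 in Ept2 (95% interval -0.44 to -0.0059, limma adjusted p = 0.409, exact permutation p = 0.0595), and -2.49 in Ept6. The other Fubp3 probe set, 1382390_at, differed by 0.08 in Ept2 (95% interval -0.22 to 0.38) and by 0.86 in Ept6.

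The chromosome 9 genes gave Ept2 differences between -0.29 and 0.15. Nif3l1 1383289_at was -0.02 in Ept2 (95% interval -0.23 to 0.19), against 1.06 in Ept6 relative to the same arrays. Nif3l1 1384207_at was -0.29 in Ept2 (95% interval -0.82 to 0.25) and 3.24 in Ept6, but its signals in Ept2, Ept1 and Ept9 were all near or under the line for dim probe sets, so its Ept2 difference says little. Maip1 was -0.07 in Ept2 (95% interval -0.46 to 0.31) and -1.08 in Ept6. Coq10b was 0.15 higher in Ept2 (95% interval -0.04 to 0.34), while it was -0.46 in Ept6. Nab1 1393172_at and Trak2 1370176_at were 0.04 and 0.13 in Ept2, against -0.53 and 0.94 in Ept6. The probe sets with the smallest Ept6 differences, Nab1 1369409_at and Trak2 1372092_at, were 0.0016 and 0.09 in Ept2, against -0.38 and -0.27 in Ept6. Over the 12 probe sets the median absolute difference of Ept2 was 0.11, beside 0.11 over all tested probe sets.

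**Figure D2:**
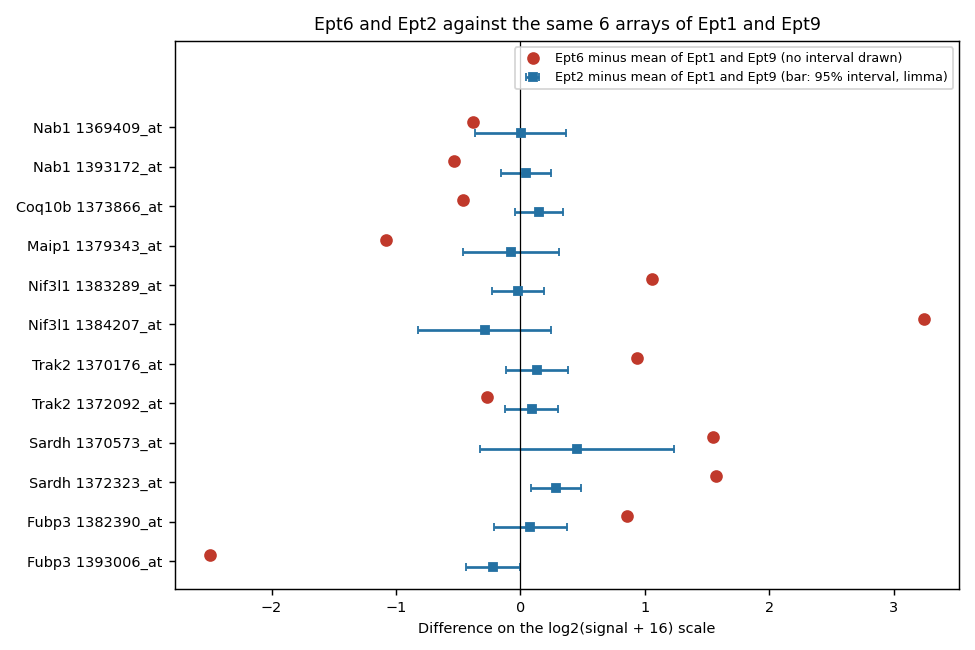
Difference of Ept6 (red circles, no interval) and of Ept2 (blue squares, bars are the 95% interval of the limma fit) from the mean of Ept1 and Ept9 on the log2(signal + 16) scale, 1 row per probe set. Both are set against the same 6 arrays. The Ept2 values lie between -0.29 and 0.46, and those of Ept6 between -2.49 and 3.24.

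Between Ept1 and Ept9, 0 of the 12 probe sets were called in the limma fit (adjusted p between 0.0744 and 0.997), against 0.494% of all tested (92, 27 higher and 65 lower). At that share a count of 0 of 12 is no result. At an unadjusted p of 0.05 there were 2, both of Sardh, against 1899 of all tested. The lowest adjusted p was that of Sardh 1372323_at, which was -0.52 ± 0.11 in Ept1 relative to Ept9 (SE). Its 3 Ept1 arrays (310.2 to 354) lay below the 3 Ept9 arrays (424 to 539), and the exact permutation p was 0.1, the smallest that 3 against 3 arrays allow. In the 2 comparisons without Ept6 this was the 1 value of the 7 genes whose call depended on the settings, as it passed with a stricter filter on dim probe sets (adjusted p = 0.0275), with an intensity trend (0.0346) and with array weights (0.0379). The order of Sardh 1372323_at was therefore Ept6, then Ept2 and Ept9 (492 ± 17.2 and 485 ± 57.9, overlapping), then Ept1 (333 ± 21.8, SD, n = 3 each). Sardh 1370573_at differed in the same direction between Ept1 and Ept9 (-1.16 ± 0.41, SE, limma adjusted p = 0.353), with a signal of 16 in 1 Ept1 array.

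The genes around the 7 were examined in annotated order, from 20 tested genes before the first to 20 after the last on each chromosome. On chromosome 9, Nab1, Coq10b, Maip1, Nif3l1 and Trak2 lie in this order with 8, 6, 5 and 4 tested genes between neighbours. Of the 82 probe sets of 63 other genes in this stretch, 0 were called for Ept6 (limma, adjusted p under 0.05, with 13 at an unadjusted p of 0.05 against 1984 of all 18607), and 4 had Ept6 arrays apart from all others. The median Ept6 difference of these genes was 0.0010 and their values ran between -0.52 and 0.58. In the other 2 comparisons the only calls were probe sets of Slc40a1, the iron exporter ferroportin, which lies before Nab1. Probe set 1376972_at of Slc40a1 was -1.33 in Ept2 relative to Ept1 and Ept9 (limma adjusted p = 0.0418), and probe set 1390412_at was -1.62 in Ept1 relative to Ept9 (limma adjusted p = 0.0345). These calls passed in 7 and 9 of 21 alternatives, and both were lost when any 1 array was left out, except Ept2 replicate 1 or 2.

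The tested genes on either side of the 5 members were not called for Ept6, and their values were of both signs. Beside Nab1 were Mfsd6 (0.17) and Nabp1 (-0.52), a single-strand DNA binding protein. Beside Coq10b were Sf3b1, a splicing factor (0.05, 0.11 and 0.44 in 3 probe sets), and Hspd1 (0.0010), the mitochondrial chaperonin. Beside Maip1 were Tyw5 (-0.10) and Spats2l (-0.04). Orc2, a subunit of the origin recognition complex, followed Nif3l1 (-0.08), and Cflar, a regulator of caspase activation, preceded Trak2 (-0.38 and 0.01 in its probe sets).

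Ppil3, a gene of the cyclophilin family on the opposite strand, shares 40 bases with the start of the annotated Nif3l1 gene span. It gave the highest value between Nab1 and Trak2 outside the 5 genes. Its probe set 1375686_at read 1282, 1121.5 and 1479 in Ept6, against 1121.2, 944 and 846 in Ept2, 740.2, 652 and 859.9 in Ept1, and 1018, 871 and 1197.5 in Ept9. The lines overlapped, and the difference of 0.50 ± 0.13 (SE) was not called (limma adjusted p = 0.233).

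On chromosome 3, 53 tested genes lie between Sardh and Fubp3. Of the 121 probe sets of 93 other genes in the stretch, 1 was called for Ept6 and 20 passed an unadjusted p of 0.05 (limma), against 1984 of all 18607. In 6 the Ept6 arrays stood apart from all others, 5 above and 1 below. Over both chromosomes these shares of other genes can be read beside the 1.93% and 0.161% of all tested probe sets given above. The shares with Ept6 arrays apart, 4 of 82 and 6 of 121, both lay above that 1.93%. The called one belonged to Tor1b, which encodes a torsin, an ATPase of the endoplasmic reticulum and nuclear envelope, and lies between Sardh and Fubp3. Its probe set 1373406_at read 1173.5, 1217 and 1307 in Ept6, against 905, 873.5 and 934 in Ept2, 869, 812 and 931 in Ept1, and 874, 888 and 872 in Ept9 (0.47 ± 0.07, SE, limma adjusted p = 0.0276). The Tor1b difference ran between 0.43 and 0.51 over 21 alternatives and passed in 10 of them (limma adjusted p between 0.0035 and 0.128), the call being lost without any 1 array of Ept6 or Ept9, Ept2 replicate 3, or Ept1 replicate 1 or 2. A second Tor1b probe set, 1382984_at, differed by -0.11 (adjusted p = 0.737), and the adjacent Tor1a by -0.04. Neither the 4 probe sets of Sardh and Fubp3 nor the 121 of the other genes of the stretch gave a call for Ept2 against Ept1 and Ept9 in the limma fit. Over all tested probe sets 0.344% were called, so the lack of calls is no result about the stretch. At an unadjusted p of 0.05 in that comparison, 11 of the 121 passed, against 2186 of all 18607. Of the 47 calls of that comparison that could be placed on a chromosome, 18 were elsewhere on chromosome 3, which held 7.52% of the tested probe sets placed. The genes next to Sardh, Fam163b (-0.07) and Vav2 (-0.15 to 0.04 in 4 probe sets), and next to Fubp3, Ass1 (-0.24) and Exosc2 (0.18), were not called for Ept6. Swi5, a DNA repair factor beyond Fubp3, was the 1 call for Ept1 relative to Ept9 in the stretch (-1.58, limma adjusted p = 0.0209), and passed in 14 of 21 alternatives, the call being lost without any 1 array of Ept1 or without Ept9 replicate 1 or 2.

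**Figure D3:**
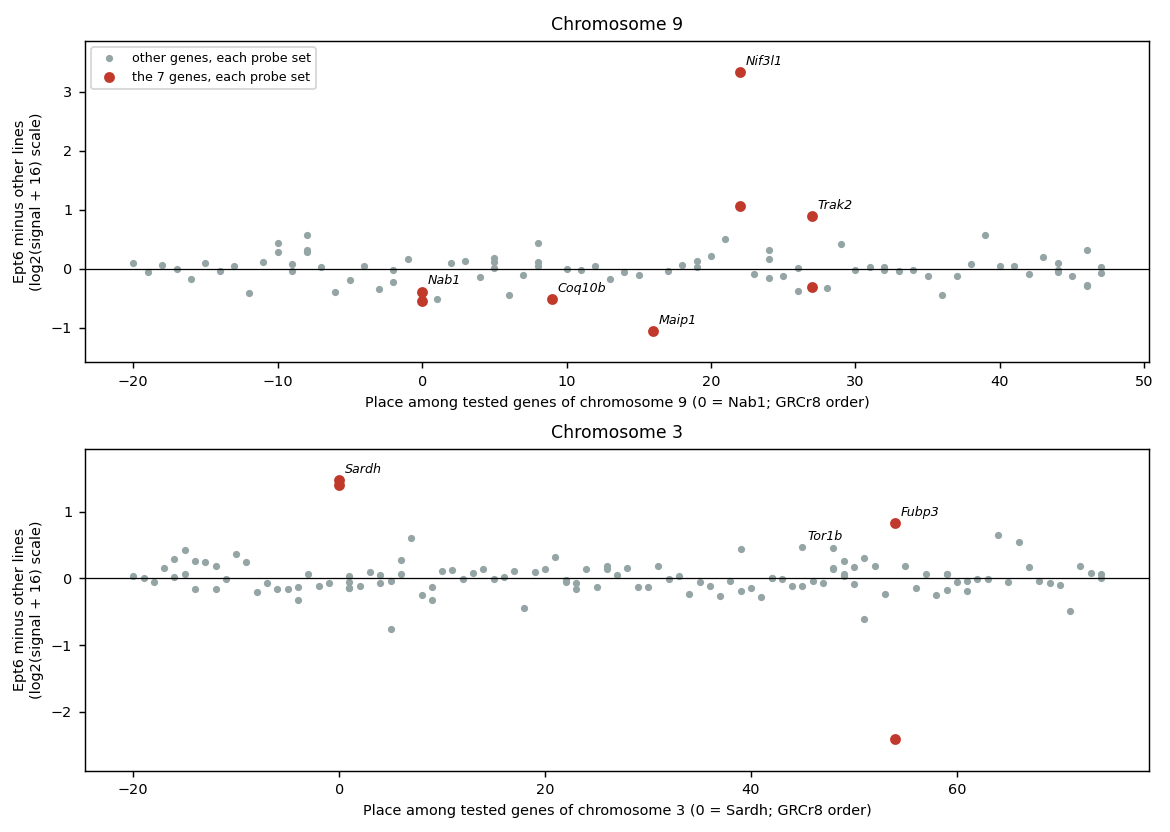
Ept6 minus the other lines on the log2(signal + 16) scale for every tested probe set (points) against the place of its gene among the tested genes of chromosome 9 (top, 0 is Nab1) and chromosome 3 (bottom, 0 is Sardh). Red points are the 7 genes, whose values run between -2.42 and 3.34, and grey points are their neighbours, between -0.76 and 0.66.

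Functional partners of the 7 genes were examined in lists of genes that work with each. The 7 lists held 66 gene symbols, with Phb and Phb1 counted separately. Of these, 48 other than the members had a tested probe set (60 probe sets), 6 were dim and 5, Phb and Phb1 among them, had no probe set. Of the 60 probe sets, 0 were called in each of the 3 comparisons (limma), which at the background shares of 0.161%, 0.344% and 0.494% is no result about the partners. At an unadjusted p of 0.05 the numbers were 8 of 60 for Ept6, 9 for Ept2 and 3 for Ept1 against Ept9. Over all 18607 tested probe sets they were 1984, 2186 and 1899 in this order. Their median Ept6 difference was -0.0026, beside 0.0090 over all tested probe sets, and 1 of the 60 had Ept6 arrays apart from the others, against 1.93% of all, Pdss2 of coenzyme Q synthesis (0.33).

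Among the EGR factors and the corepressors, Egr1 differed by -0.03, Egr3 by -0.02 and Nab2 by -0.09 in Ept6, and Egr2 and Egr4 were dim. The 11 other genes of the coenzyme Q list had a median of -0.11 and lay between -0.53 (Coq8a) and 0.33. For Maip1, its partner Afg3l2 differed by 0.12, and Smdt1, the uniporter subunit that MAIP1 protects in human cells, by -0.12. The kinesin heavy chains and Miro proteins that work with Trak2 lay between -0.13 (Kif5b) and 0.51 (Kif5a), and its paralogue Trak1 was at -0.0016. Of the sarcosine and one-carbon genes, Dmgdh, a dehydrogenase related to Sardh, was dim, Gnmt, which makes sarcosine, differed by -0.20, and the electron acceptor Etfa by -0.32. For Fubp3, its family members Fubp1 and Khsrp differed by 0.05 and by -0.08 and 0.21, and Myc by -0.18.

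**Figure D4:**
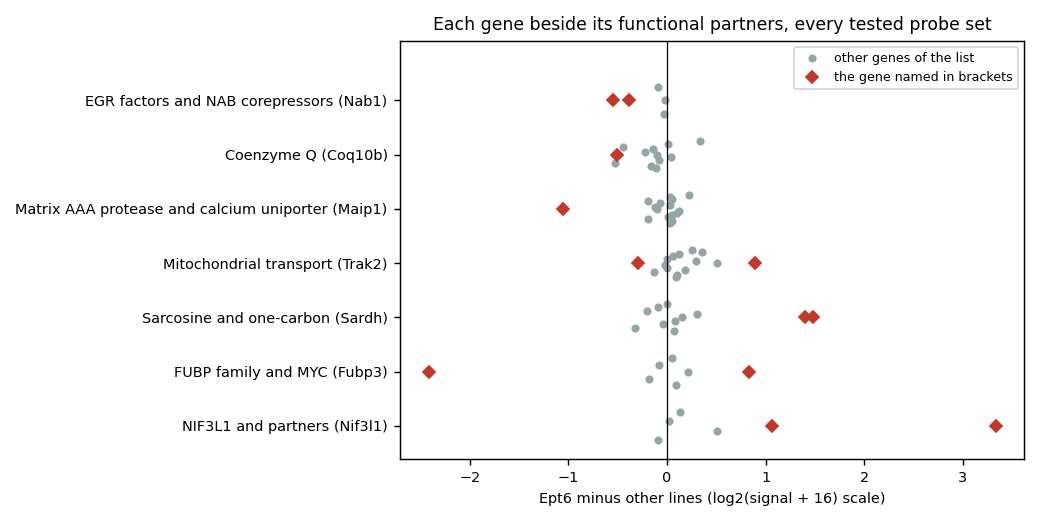
Ept6 minus the other lines on the log2(signal + 16) scale for every tested probe set of the 7 partner lists (rows). Red diamonds are the 7 genes and grey points are the other genes of each list, which lie between -0.53 and 0.51.

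The genes most like each member over the 12 arrays were ranked by Pearson r on log2 values, as a description that rests on the step between Ept6 and the rest. Nif3l1 1384207_at was most like Tor1b (r = 0.94), Trak2 1370176_at (0.93) and Zer1 (0.91), of which Tor1b and Zer1 are on chromosome 3 between Sardh and Fubp3. Trak2 1370176_at was most like Nif3l1, Tor1b and Sardh (0.93, 0.93 and 0.91), and Sardh 1372323_at most like both Nif3l1 probe sets and Tor1b (0.91 each). Over the 9 arrays without Ept6, r was 0.13 for Nif3l1 with Tor1b, 0.28 with Trak2 and 0.40 with Zer1. For Trak2 it was 0.63 with Tor1b and 0.20 with Sardh, and for Sardh it was -0.023 and -0.028 with the Nif3l1 probe sets and 0.25 with Tor1b. The mean of Nif3l1 1384207_at in those 9 arrays was 58.9, under the line for dim probe sets, so its r values without Ept6 say little.

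The ranking took the highest r with its sign, so a probe set low in Ept6 could not be paired with the high ones above. That the low probe sets had other companions was therefore fixed in advance. None of these companions lay on chromosome 3 or 9. Nab1 1393172_at was most like Tipin, Ypel5 and Acot9 (r = 0.95, 0.92 and 0.90), with 0.82, 0.58 and 0.62 over the 9 arrays without Ept6. Coq10b was most like Glud1, Med21 and Cox7c (0.95, 0.93 and 0.91), with 0.92, 0.68 and 0.78 without Ept6. Maip1 was most like Pcnx4, Hif1a and Aldh4a1 (0.92, 0.90 and 0.87), with 0.76, 0.71 and 0.53 without Ept6. Fubp3 1393006_at was most like Psma2, Pigq and Ufd1 (0.96, 0.92 and 0.91), but without Ept6 these values were 0.53, -0.40 and 0.037.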

How the data were processed

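Anterior pituitary RNA of DES-treated congenic males had been hybridised to 12 one-colour oligonucleotide arrays. The deposited values are linear intensity values (signals), scaled by the authors to a common trimmed mean; no source used here names the software or the background correction. No per-sample column was left out. Probe sets were named from the platform annotation (20832 with 1 symbol, 436 with several, 9831 with none), and genes were ordered by RefSeq GRCr8.

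From these signals, log2(signal + 16) was fitted by line with limma 3.58.1 in R 4.3.3 (lmFit and eBayes, 8 residual degrees of freedom). The 57 control probe sets and 12435 under the 40th percentile of mean signal were left out, and p-values were adjusted by Benjamini-Hochberg over all 18607 tested. Contrasts were Ept6 minus the mean of the other lines (used for the choice of the genes, so no p is given for them), Ept2 minus Ept1 and Ept9, and Ept1 minus Ept9. The contrasts without Ept6 are orthogonal to the one with it. Exact permutation tests used all choices of arrays. Precision is limited by there being 3 arrays a line. The code of the fit was checked on simulated data with changes placed in Ept2 and independent noise in each array. That check does not cover replicates that are in part technical. The 7 genes, the lists and the tests were chosen with earlier results of these data known. Named genes were all probe sets of the 7, neighbours and partners called in a contrast or nearest to a member, and the 3 genes most correlated with each member. Genes of the partner lists and neighbours outside that rule were named after their values were seen. Other pseudocounts, scalings, filters, a replicate block, a trend, array weights and leaving out single arrays were tried as alternatives.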

Additional observations from a re-analysis of the deposited data

How the results depend on the processing

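Of the 250 alternative values of Ept6 minus the other lines in the 7 genes, 248 moved by less than the spread between replicates and none changed sign. Both exceptions came with a pseudocount of 64, 2.68 for Nif3l1 1384207_at and -2.17 for Fubp3 1393006_at. With the filter at the 60th percentile, Nif3l1 1384207_at and Sardh 1370573_at fell out as dim. No alternative brought a probe set of the 7 genes under an adjusted p of 0.05 in Ept2 minus Ept1 and Ept9. Calls of the 7 genes for Ept6 were lost in all settings but 3, the pseudocount of 64, quantile normalization and the trend, and 4 to 8 of the 9 were kept in the others. The alternatives for Tor1b, Slc40a1 and Swi5 were run after seeing the data. In Ept1 minus Ept9 only Sardh 1372323_at passed, at -0.52 with each of the 3 settings given above.

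Values near 0 changed sign. In Ept2 minus Ept1 and Ept9, Nab1 1369409_at was -0.047 with median centring and -0.16 with array weights, and Nab1 1393172_at was -0.0060 with median centring. Leaving out 1 array gave -0.13 to 0.22 for Nab1 1369409_at, -0.016 to 0.076 for Nab1 1393172_at, -0.32 to 0.10 for Maip1, -0.077 to 0.034 for Nif3l1 1383289_at, -0.024 to 0.15 for Trak2 1372092_at and -0.056 to 0.21 for Fubp3 1382390_at. In Ept1 minus Ept9, Nab1 1369409_at was -0.019, -0.020 and -0.012 with quantile normalization, median centring and array weights, and Nif3l1 1383289_at was -0.0030 with quantile normalization. Leaving out 1 array gave -0.12 to 0.10 for Nab1 1369409_at, -0.066 to 0.12 for Nif3l1 1383289_at, -0.24 to 0.39 for Nif3l1 1384207_at and -0.062 to 0.10 for Trak2 1370176_at.

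The counts over all probe sets moved more, and the cause was not tested. For Ept6, Ept2 and Ept1 in this order the calls numbered 9, 12 and 32 without a filter, 60, 120 and 154 with the filter at the 60th percentile, and 104, 155 and 195 with an intensity trend. A pseudocount of 1 gave 16 for Ept6, array weights gave 183 for Ept1, and a fit of the 9 arrays without Ept6 gave 20 for Ept2. Median centring changed the split of the Ept2 calls to 23 higher and 53 lower. Leaving out 1 array gave 11 to 29 calls for Ept6, 15 (without Ept2 replicate 3) to 60 for Ept2, and 22 (without Ept1 replicate 2) to 110 for Ept1. The Ept6 count moved by over 1.5 times for every array left out except Ept2 replicates 1 and 2, the Ept2 count for every array except Ept2 replicate 2, and the Ept1 count for each Ept1 and Ept9 array. With the replicate number as a block (replicate block) the counts were 12, 25 and 58. For Ept6 it left 5 of the 9 calls of the 7 genes and lost Nab1 1393172_at, Coq10b, Maip1 and Fubp3 1382390_at, and no probe set of the 7 genes was called in Ept2 minus Ept1 and Ept9. The numbers did not pair the arrays: deviations of same-numbered arrays from their line means correlated between -0.13 and 0.07 over 18 pairs, and 4 of 12 arrays correlated best with their own number.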
